A study of Mus musculus with 12 samples.

Results

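The aryl hydrocarbon receptor complex was followed in primary mouse hepatocytes through 9 genes: the receptor Ahr, its dimer partners Arnt and Arnt2, the receptor repressor Ahrr, the chaperone genes Hsp90aa1, Hsp90ab1 and Ptges3, and the coactivators Ncoa1 and Ncoa2. The members were the probe sets that the array annotation assigns to 1 of these symbols and to no other gene. This gave 23 probe sets for 7 of the 9 genes, of 45037 probe sets that are no control: 2 for Ahr, 5 for Arnt, 3 for Arnt2, 1 for Ahrr, 5 for Hsp90aa1, 3 for Ncoa1 and 4 for Ncoa2. No probe set was listed for Hsp90ab1, and the 2 probe sets that name Ptges3 also name Ptges3-ps, so neither gene has values here.

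RNA came from hepatocytes of hAHR mice (Ahrtm3.1Bra, a floxed Ahr allele, with the Alb-cre and Ttr-AHR transgenes) and of C57BL6/J mice, each treated with the dioxin TCDD at 10 nM or with DMSO vehicle for 6 h. There were 3 arrays in each of the 4 groups, and the series' design text gives 1 mouse per array. All 12 cultures had been kept for 48 h in serum-free hepatocyte medium with 2.5% DMSO and 10 nM dexamethasone, so the DMSO and dexamethasone of the medium are common to the TCDD and the vehicle groups. Sex and age are not given in the labels. In hAHR mice Alb-cre drives recombination of the floxed Ahr in hepatocytes, while the transthyretin promoter drives the human receptor there.

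The receptor is a ligand-activated basic helix-loop-helix PAS transcription factor. Without ligand it is held in the cytosol by a dimer of HSP90 together with the co-chaperone p23, the product of Ptges3. Dioxins such as TCDD bind it, it moves to the nucleus, pairs with ARNT and binds DNA at sites with a GCGTG core, where coactivators of the p160 family such as NCOA1 and NCOA2 join it. AHRR, itself a target gene of the receptor, competes for ARNT and represses the same sites. In liver the best known target is Cyp1a1.

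Signals below are the deposited intensities after each array was rescaled to a 2% trimmed mean of 150. The C57BL6/J TCDD arrays were deposited on another scale than the other groups. In comparisons with this group, its treatment and any separate processing of its arrays cannot be told apart. Levels of different probe sets are not compared with each other as amounts of RNA, because each probe set has its own brightness. Changes are on the log2 scale after adding 16 to each signal, which shrinks the changes of dim probe sets, and a probe set was called at an adjusted p under 0.05 from limma with Benjamini-Hochberg adjustment over all 45037. Replicates 2 of both C57BL6/J groups stood apart: Xist (1436936_s_at) read 2950 in the TCDD array and 3080 in the DMSO array, against at most 29.3 in the other 10 arrays, and the Y-linked Eif2s3y (1417210_at) read at most 4.7 in these arrays and at least 453 elsewhere. No hAHR array was of this kind, so female origin and these individual animals cannot be told apart. The hepatocyte markers were high in every array, with a summed signal of 6 measured markers of 7 between 42100 and 60400, and lymphocyte markers summed to between 21.2 and 57.3. In RNA from a culture, fewer cells of a type and less RNA per cell cannot be told apart.

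Ahr, the receptor itself, was read by its brighter probe set 1422631_at at 225, 193 and 216 in hAHR TCDD arrays, 224, 193 and 236 in hAHR DMSO arrays, 243, 442 and 223 in C57BL6/J TCDD arrays, and 261, 617 and 245 in C57BL6/J DMSO arrays. Replicate 2 was the highest array of both C57BL6/J groups, and the other 4 C57BL6/J arrays lay between 223 and 261. All 3 hAHR DMSO arrays were below all 3 C57BL6/J DMSO arrays, while the TCDD groups of the genotypes overlapped. Under DMSO the hAHR against C57BL6/J change was -0.62 (SE 0.30, 95% interval -1.27 to 0.03, limma adjusted p = 0.992), and under TCDD it was -0.43 (SE 0.30, adjusted p = 1). Averaged over treatments it was -0.52 (SE 0.21, 95% interval -0.98 to -0.07, adjusted p = 0.924, n = 6 arrays against 6). The averaged interval takes the arrays as independent and is too narrow if same-numbered TCDD and DMSO arrays share an animal, which was not tested. Without both C57BL6/J replicate 2 arrays these changes were -0.21 under DMSO, -0.14 under TCDD and -0.17 averaged. The SD of the log2 signal within groups was 0.12 in hAHR arrays and 0.62 in C57BL6/J arrays. The fit shares 1 spread among the 4 groups, so the SE and interval of a change within hAHR also carry the C57BL6/J spread.

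TCDD did not move this probe set past the test in either genotype, with changes of -0.04 in hAHR hepatocytes (95% interval -0.68 to 0.61, limma adjusted p = 1) and -0.23 in C57BL6/J hepatocytes (95% interval -0.87 to 0.42, limma adjusted p = 0.971). The C57BL6/J value moved with single arrays: it was -0.52 without TCDD replicate 2, 0.18 without DMSO replicate 2 and -0.11 without both. The difference between these responses was 0.19 (95% interval -0.72 to 1.10). The dimmer Ahr probe set, 1450695_at, ranged from 17.6 to 50.4 over the 12 arrays, with all groups overlapping, and its correlation with the brighter one over the arrays was 0.54 (Pearson). No source used here says where the Ahr probe sets lie relative to the floxed part, so their signal in hAHR arrays is no check of the recombination. RNA of the human receptor was not analysed here, and whether it adds to the Ahr signal of hAHR arrays was not tested.

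Markers of other liver cells were read beside Ahr. Of 6 Kupffer cell and macrophage markers, 6 were above 0 in the hAHR against C57BL6/J change under DMSO, with a median of 1.15 against 0.03 for all probe sets, and 0 passed the test; under TCDD 5 of 6 were above 0, with a median of 1.01, and 0 passed. Csf1r, the receptor for macrophage colony-stimulating factor, read 23.3, 127 and 195 in hAHR DMSO arrays, against 20.8, 28.0 and 49.5 in C57BL6/J DMSO arrays. The summed marker signal, mostly that of Cd68, was 1820 to 3800 in hAHR TCDD arrays, 2010 to 4090 in hAHR DMSO arrays, 1850 to 4160 in C57BL6/J TCDD arrays and 1870 to 3380 in C57BL6/J DMSO arrays. Marco, a macrophage scavenger receptor, read 2.8 in its highest C57BL6/J DMSO array and 102 in its highest hAHR DMSO array, which compares single arrays only. Stellate cell markers summed to 186 to 245 in hAHR TCDD arrays, 112 to 266 in hAHR DMSO arrays, 101 to 140 in C57BL6/J TCDD arrays and 107 to 150 in C57BL6/J DMSO arrays, and endothelial markers to 126 to 200 in hAHR TCDD arrays, 134 to 235 in hAHR DMSO arrays, 136 to 155 in C57BL6/J TCDD arrays and 122 to 126 in C57BL6/J DMSO arrays. Cholangiocyte markers summed to between 533 and 1370 over the 12 arrays. The part of these cells in the Ahr signal was not tested.

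**Figure D1:**
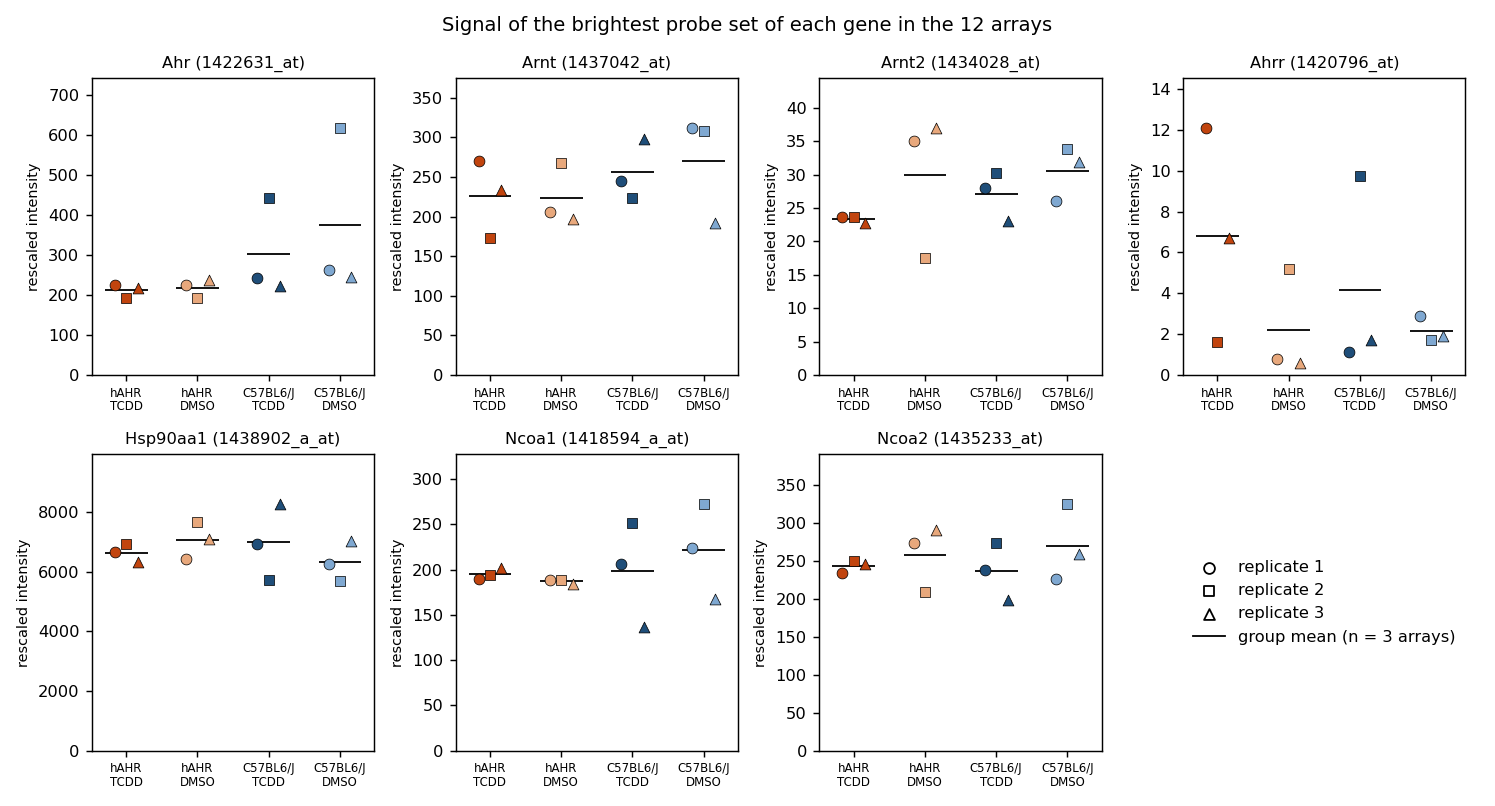
Rescaled intensity (linear axes from 0) of the brightest probe set of each of the 7 genes, 1 point per array, with circles, squares and triangles for replicates 1, 2 and 3 and a line at each group mean of 3 arrays. The Ahr squares of the C57BL6/J groups, at 442 and 617, stand above the other 10 arrays, which lie between 193 and 261.

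Arnt, the obligate partner of the activated receptor, had 3 brighter probe sets, and none passed the test in any of the 7 comparisons. The brightest, 1437042_at, read 270, 173 and 234 in hAHR TCDD arrays, 206, 267 and 197 in hAHR DMSO arrays, 245, 224 and 298 in C57BL6/J TCDD arrays, and 312, 308 and 192 in C57BL6/J DMSO arrays, and every pair of groups overlapped. Probe set 1419996_s_at ranged from 126 to 194. Probe set 1421721_a_at had the smallest spread, 112 to 141, and read 132, 133 and 124 in hAHR TCDD arrays, all above the 122, 116 and 119 of hAHR DMSO arrays. That difference was 0.11 (SE 0.14, 95% interval -0.19 to 0.41, limma adjusted p = 1), and in C57BL6/J hepatocytes the change of this probe set was -0.07, with the groups overlapping.

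The remaining Arnt probe sets were dim. Probe set 1449696_at read 19.7, 18.4 and 13.4 in hAHR TCDD arrays, below the 21.1, 38.8 and 24.1 of hAHR DMSO arrays, a change of -0.39 (SE 0.23, adjusted p = 1), and 1425064_at ranged from 2.9 to 33.7. The Arnt probe sets did not follow each other over the arrays, with Pearson correlations between pairs from -0.42 to 0.44 (12 arrays, a description). Arnt2, a related partner best known from neurons, was dim throughout: its brightest probe set 1434028_at read 23.6, 23.7 and 22.8 in hAHR TCDD arrays, 35.1, 17.5 and 37.0 in hAHR DMSO arrays, 28.0, 30.2 and 23.1 in C57BL6/J TCDD arrays, and 26.1, 33.8 and 31.9 in C57BL6/J DMSO arrays. TCDD and DMSO groups overlapped in both genotypes, and so did the genotypes under either treatment. Its other probe sets, 1420669_at and 1420670_at, stayed at or below 31.2 and 17.5.

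Ahrr, the repressor, carries matches to the receptor's core site before its start. The promoter windows of RefSeq (GRCm38.p6) run from 250 bases before to 50 bases after a gene's start, and 4 of the 7 measured genes had one: Arnt, Arnt2, Ahrr and Ncoa1. The Ahrr and Arnt windows are shown because Ahrr is a receptor target and Arnt the receptor's partner; capitals mark each GCGTG on the printed strand. The Ahrr window, chr13:74292282-74292581 on the minus strand, holds 3 GCGTG matches, while the Arnt window, chr3:95434140-95434439 on the plus strand, holds 1.
Ahrr: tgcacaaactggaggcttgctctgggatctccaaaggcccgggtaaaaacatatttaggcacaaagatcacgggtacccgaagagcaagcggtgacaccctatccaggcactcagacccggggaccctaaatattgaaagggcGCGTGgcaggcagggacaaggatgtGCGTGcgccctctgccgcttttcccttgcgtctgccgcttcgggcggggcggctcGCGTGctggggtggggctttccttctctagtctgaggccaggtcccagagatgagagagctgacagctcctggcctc
Arnt: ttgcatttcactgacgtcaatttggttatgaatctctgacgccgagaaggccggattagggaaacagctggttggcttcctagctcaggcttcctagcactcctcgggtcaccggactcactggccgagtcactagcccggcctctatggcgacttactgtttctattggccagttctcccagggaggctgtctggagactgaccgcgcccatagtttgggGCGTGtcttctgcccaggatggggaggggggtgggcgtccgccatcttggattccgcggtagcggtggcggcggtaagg
On both strands, GCGTG occurred at least 1 time in 32.4% of 32851 mouse promoter windows and at least 3 times in 3.91%. The longer motif TNGCGTG, which contains GCGTG, occurred in the Ahrr window 1 time and in 5.07% of all windows. The Arnt2 window held 0 GCGTG matches and the Ncoa1 window 1 on each strand. These are matches of letters and show no binding.

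The only Ahrr probe set, 1420796_at, read 12.1, 1.6 and 6.7 in hAHR TCDD arrays, 0.8, 5.2 and 0.6 in hAHR DMSO arrays, 1.11, 9.72 and 1.71 in C57BL6/J TCDD arrays, and 2.9, 1.7 and 1.9 in C57BL6/J DMSO arrays. All 12 signals were below 29.3, the highest Xist signal (1436936_s_at) of the 10 arrays where it is low, though such low signals differ between probe sets: another Xist probe set read at most 11.8 in the same 10 arrays. Treated and vehicle groups overlapped in both genotypes. The TCDD change was 0.31 in hAHR hepatocytes (SE 0.19, 95% interval -0.10 to 0.72, limma adjusted p = 1) and 0.13 in C57BL6/J hepatocytes (SE 0.19, 95% interval -0.28 to 0.54, limma adjusted p = 0.973). The hAHR value followed the offset and single arrays: it was 1.29 with an offset of 1 and 0.12 with an offset of 50, and 0.14 without hAHR TCDD replicate 1 and 0.48 without hAHR TCDD replicate 2. The C57BL6/J value was 0.34 and 0.05 with these offsets and -0.08 without both replicate 2 arrays. No setting tried moved Ahrr past the test. Over all probe sets, 46.1% were at or below 29.3 in all 12 arrays, and 5 of the 23 members were: Ahrr, Arnt2 1420670_at, Hsp90aa1 1441827_x_at and 1433251_at, and Ncoa1 1443397_at.

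Other receptor targets were read in the same arrays. Tiparp, a mono-ADP-ribosyltransferase gene induced by the receptor, read 3540, 3610 and 3480 in hAHR TCDD arrays, against 1330, 1400 and 1340 in hAHR DMSO arrays, and 2580, 3320 and 2530 in C57BL6/J TCDD arrays, against 1400, 911 and 1100 in C57BL6/J DMSO arrays. It rose by 1.37 in hAHR hepatocytes (limma adjusted p = 0.00696) and by 1.30 in C57BL6/J hepatocytes (limma adjusted p = 0.0191), with no overlap in either. The hAHR change was 1.34 to 1.41 under the 22 other settings and passed in 16 of them, the 6 without it being those that left out 1 hAHR array (adjusted p 0.0597 to 0.0856). The C57BL6/J change was 1.03 to 1.46 and passed in only 7 of the 22. It failed on the same-median scale (adjusted p = 0.665), without the intensity trend (0.117), on the C57BL6/J arrays alone (0.977), with the replicate block (0.0805), without both replicate 2 arrays (0.206), and without TCDD replicate 1 or 2, DMSO replicate 2 or 3, or any 1 hAHR array (0.056 to 0.203). Averaged over genotypes, Tiparp rose by 1.34 (limma adjusted p = 0.000198), and it passed in all 21 other settings run for that comparison. Cyp1a1, a monooxygenase of dioxin response, read 6620, 4000 and 6940 in hAHR TCDD arrays, against 81.9, 63.0 and 60.5 in hAHR DMSO arrays, and 125, 2520 and 64.9 in C57BL6/J TCDD arrays, against 25.3, 24.0 and 18.5 in C57BL6/J DMSO arrays. The high C57BL6/J TCDD array was replicate 2, and the limma adjusted p was 0.0584 in hAHR and 0.968 in C57BL6/J hepatocytes. As the fit shares 1 spread among the 4 groups, that array also widens the spread used for hAHR. The hAHR change, 6.09, passed in 9 of the 22 other settings (limma adjusted p 3.15e-08 to 0.443) and the C57BL6/J change in 0. Averaged over genotypes, Cyp1a1 rose by 4.54 (limma adjusted p = 0.0216), and it passed in 11 of the 21 other settings run for that comparison. Of the 10 measured members of the target list, 1 passed in each genotype, and their median change was 0.585 in hAHR hepatocytes, against -0.01 for all probe sets, and 0.62 in C57BL6/J hepatocytes, against 0.04. Cyp1a2 was higher in hAHR than in C57BL6/J hepatocytes under DMSO, at 3350, 3000 and 2570 against 734, 429 and 611 (log2 change 2.32, limma adjusted p = 0.00827), and this call was lost without hAHR DMSO replicate 1 or 2 or C57BL6/J DMSO replicate 2 or 3 (adjusted p 0.0672 to 0.0849).

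**Figure D2:**
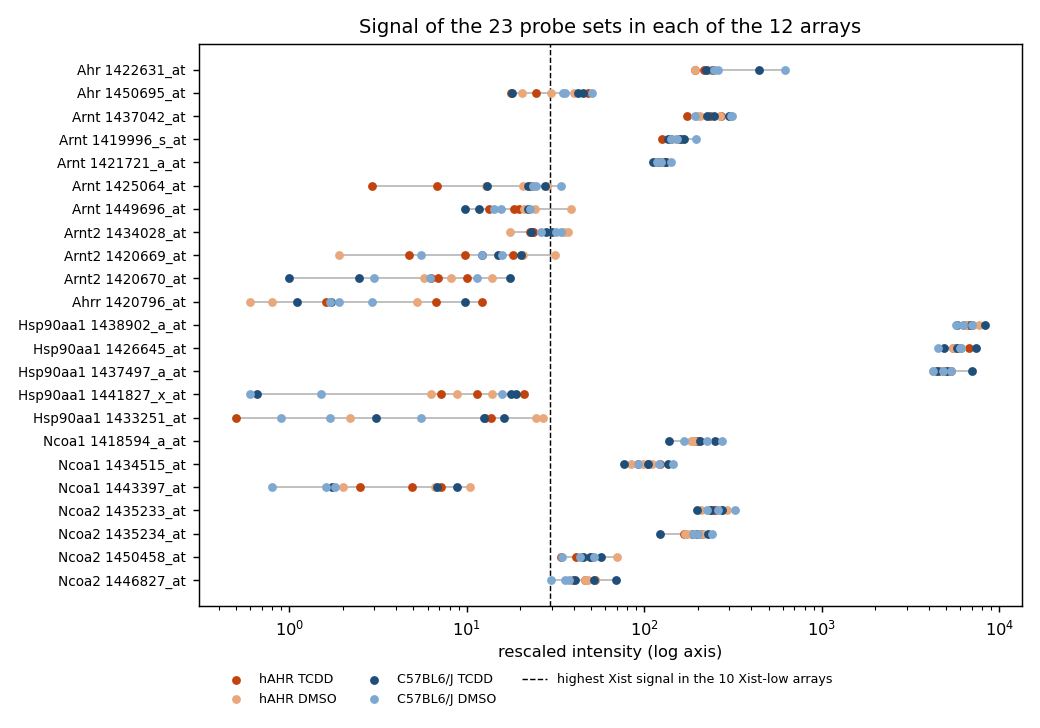
Rescaled intensity (log axis) of each of the 23 probe sets, with 1 point per array coloured by group and a grey bar over the range of the 12 arrays. The dashed line at 29.3 is the highest Xist signal of the 10 arrays in which Xist is low; all Ahrr points lie left of it and the 3 bright Hsp90aa1 probe sets lie at 4200 and above.

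Hsp90aa1 encodes the stress-inducible cytosolic HSP90, which holds the unliganded receptor. Its 3 bright probe sets were among the brightest 1% of the array, and none passed the test in any comparison. Probe set 1438902_a_at read 6670, 6930 and 6320 in hAHR TCDD arrays, 6440, 7670 and 7090 in hAHR DMSO arrays, 6940, 5740 and 8290 in C57BL6/J TCDD arrays, and 6270, 5690 and 7030 in C57BL6/J DMSO arrays. C57BL6/J replicate 2 was the lowest array of both C57BL6/J groups and replicate 3 the highest, and the groups overlapped. The TCDD change was -0.09 in hAHR hepatocytes (95% interval -0.41 to 0.23, limma adjusted p = 1) and 0.13 in C57BL6/J hepatocytes (95% interval -0.19 to 0.45, limma adjusted p = 0.970).

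The other bright probe sets followed: Pearson correlations among the 3 over the 12 arrays were 0.77 to 0.85. Probe set 1426645_at ranged from 4520 to 7410 and 1437497_a_at from 4200 to 7030, with the C57BL6/J TCDD replicate 3 array highest in both. The same array was the highest of the 12 for several heat shock genes. Hspa1b, an inducible HSP70, read 1760, 1090 and 6990 in C57BL6/J TCDD arrays, against 1320, 1040 and 1490 in C57BL6/J DMSO arrays. Hsph1, an HSP110 exchange factor, reached 2630 there and Ahsa1, an activator of the HSP90 ATPase, reached 2260. Their TCDD changes in C57BL6/J hepatocytes were 0.90 (Hspa1b), 0.43 (Hsph1) and 0.24 (Ahsa1), each with a limma adjusted p of 0.968. Of 13 measured co-chaperone and heat shock genes, 0 passed in any comparison. For TCDD in C57BL6/J hepatocytes 8 were above 0 (median 0.20), against 58.4% of all probe sets (median 0.04). For TCDD in hAHR hepatocytes 8 were above 0 (median 0), against 47.6% of all probe sets (median -0.01). Without this array the TCDD changes of the bright Hsp90aa1 probe sets in C57BL6/J hepatocytes were 0 for 1438902_a_at, against 0.13 with it, -0.06 for 1426645_at, against 0.11, and 0 for 1437497_a_at, against 0.19.

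Both other Hsp90aa1 probe sets were at or below 26.8 in all arrays. Probe set 1433251_at read 2.2, 26.8 and 24.6 in hAHR DMSO arrays, against 1.7, 5.5 and 0.9 in C57BL6/J DMSO arrays. The change was 0.77 (SE 0.33, 95% interval 0.07 to 1.47, limma adjusted p = 0.992), with overlapping groups, and the changes of the 3 bright probe sets in that comparison were 0.16, 0.07 and -0.06.

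Ncoa1 and Ncoa2 are p160 coactivators that bind the liganded receptor and recruit histone acetyltransferases. Ncoa1 1418594_a_at read 190, 194 and 202 in hAHR TCDD arrays, 189, 189 and 184 in hAHR DMSO arrays, 206, 251 and 137 in C57BL6/J TCDD arrays, and 224, 273 and 168 in C57BL6/J DMSO arrays. All hAHR TCDD arrays were above all hAHR DMSO arrays, by 0.05 (95% interval -0.38 to 0.49, limma adjusted p = 1), and the C57BL6/J groups overlapped widely. The within-group SD on the log2 scale was 0.03 in hAHR and 0.37 in C57BL6/J arrays. As the fit shares 1 spread among the 4 groups, the hAHR interval also carries the C57BL6/J spread. Ncoa1 1434515_at ranged from 77.2 to 145 and followed the first probe set (Pearson r 0.88), while 1443397_at was dim (0.8 to 10.4) and higher in all hAHR DMSO arrays, at 6.6, 10.4 and 2.0, than in C57BL6/J DMSO arrays, at 1.6, 0.8 and 1.8.

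Ncoa2 1435233_at read 234, 249 and 246 in hAHR TCDD arrays, 273, 208 and 290 in hAHR DMSO arrays, 238, 273 and 198 in C57BL6/J TCDD arrays, and 226, 325 and 258 in C57BL6/J DMSO arrays, with all groups overlapping. Probe set 1435234_at ranged from 122 to 241 and 1450458_at from 33.7 to 70.2. Ncoa2 1446827_at read 46.2, 39.5 and 52.7 in hAHR TCDD arrays, 48.2, 46.3 and 52.6 in hAHR DMSO arrays, 40.8, 52.3 and 68.9 in C57BL6/J TCDD arrays, and 35.9, 37.4 and 29.8 in C57BL6/J DMSO arrays. The C57BL6/J DMSO arrays were the lowest 3 of the 12. The TCDD change in C57BL6/J hepatocytes was 0.46 (SE 0.20, 95% interval 0.02 to 0.89, limma adjusted p = 0.968), in hAHR hepatocytes -0.07 (SE 0.20, adjusted p = 1), and the difference between them -0.53 (95% interval -1.14 to 0.09, adjusted p = 1). The TCDD change of the brightest Ncoa2 probe set, 1435233_at, in C57BL6/J hepatocytes had the other sign, -0.18.

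Across the 23 probe sets, 0 passed the test in the 7 comparisons. Over all probe sets the share called was 0.00666% for TCDD in hAHR hepatocytes, 0.00444% for TCDD in C57BL6/J hepatocytes, 0% for the difference of these responses, 0.00444% between genotypes under TCDD, 0.00666% between genotypes under DMSO, 0.0222% between genotypes averaged and 0.0133% for TCDD averaged, so few probe sets of any gene were called. At an unadjusted p under 0.05, 1 member passed for TCDD in C57BL6/J hepatocytes (Ncoa2 1446827_at, 4.57% of all probe sets), 1 between genotypes under DMSO (Hsp90aa1 1433251_at, 4.34%) and 1 between genotypes averaged (Ahr 1422631_at, 5.28%); 0 passed in the other 4 comparisons, where the share of all probe sets was 3.5% for TCDD in hAHR hepatocytes, 3.72% for the difference, 4.8% between genotypes under TCDD and 3.9% for TCDD averaged. These counts are near the background.

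The count of members whose groups did not overlap was set against the same count over all probe sets. TCDD was above DMSO in 2 members in hAHR hepatocytes (3.69% of all probe sets) and below in 1 (4.18%); in C57BL6/J hepatocytes it was above in 1 (7.17%) and below in 0 (2.61%). Between genotypes under DMSO, hAHR was above in 2 members (6.2%) and below in 1 (4.23%), and under TCDD it was above in 0 (3.13%) and below in 0 (6.01%). With 6 arrays against 6, hAHR was above C57BL6/J in 0 members (0.153%) and below in 0 (0.213%), and TCDD was above DMSO in 0 (0.111%) and below in 0 (0.0466%). The median member change was -0.06 for TCDD in hAHR hepatocytes, against -0.01 for all probe sets, and -0.06 in C57BL6/J hepatocytes, against 0.04. It was -0.03 between genotypes under DMSO, against 0.03. The 95% interval lay within a log2 change of 1 in either direction for 21 of 23 members in each of the 4 comparisons of 3 arrays against 3, for 23 of 23 in both averaged comparisons, and for 15 of 23 in the difference of responses.

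**Figure D3:**
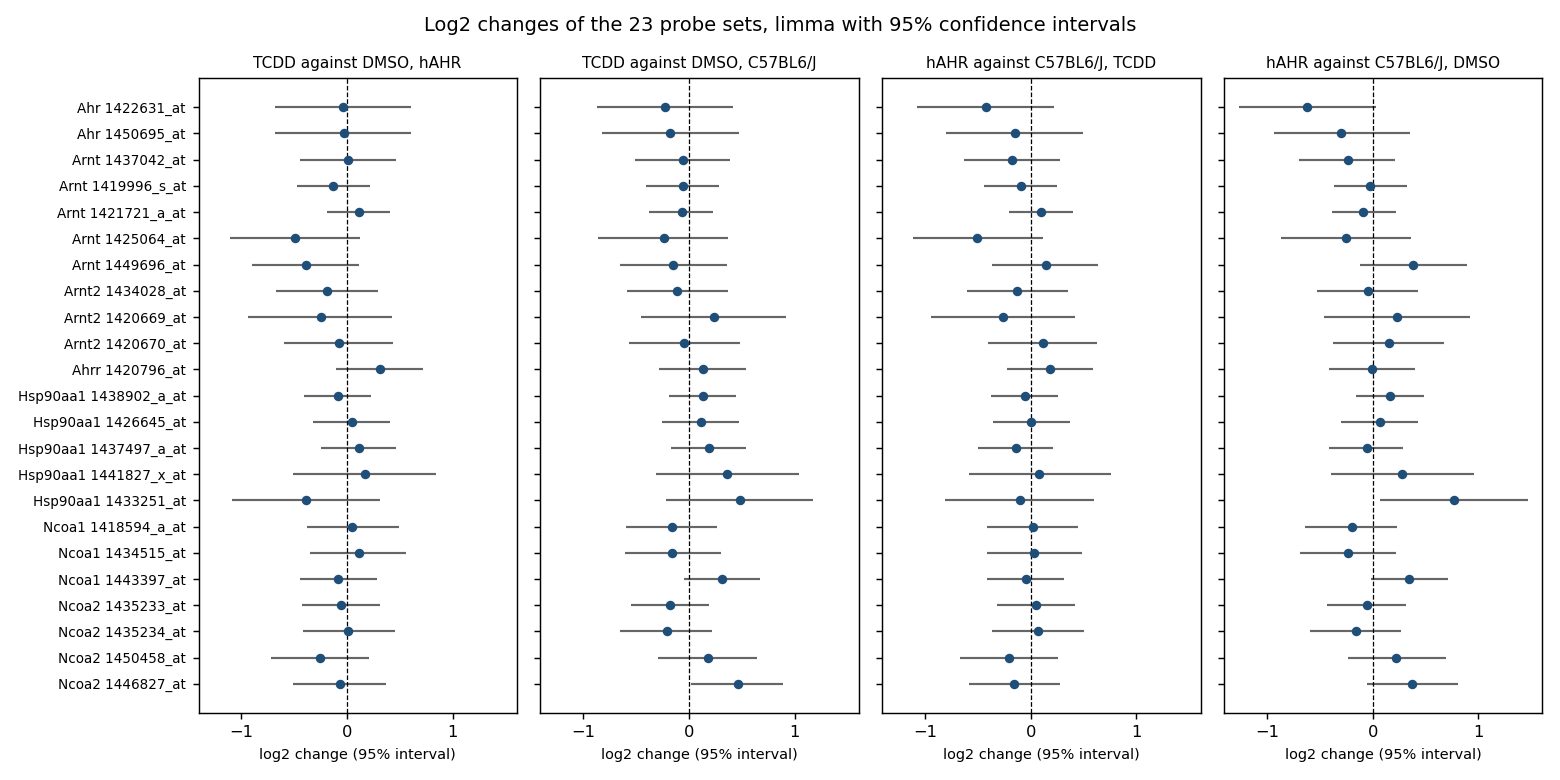
Log2 change of each of the 23 probe sets with its 95% interval from limma in 4 comparisons, 3 arrays against 3 in each, with the dashed line at 0. The widest excursions are Hsp90aa1 1433251_at at 0.77 and Ahr 1422631_at at -0.62, both in hAHR against C57BL6/J under DMSO, and no adjusted p is below 0.968 in any panel.

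The C57BL6/J replicate 2 arrays stood apart in more members than Ahr. Both were above all other 10 arrays in 5 members and below in 3, against 6.1% and 5.13% of all probe sets. Ahr 1422631_at had the largest ratio of the 5, a mean of 530 in the replicate 2 arrays against 226 in the others, or 2.34 times. Ncoa1 1418594_a_at and 1434515_at were each 1.39 times higher, Ncoa2 1435234_at 1.29 times and Arnt 1419996_s_at 1.21 times. Hsp90aa1 1438902_a_at and 1426645_at were lower, at 0.821 and 0.776 times, and the dim 1441827_x_at read at most 0.66 against at least 1.5 elsewhere. With arrays shifted to the same median, 1 member stayed above, Ahr 1422631_at, at 405 and 673 against 192 to 285, and 1 below, against 4.17% and 3.38% of all probe sets. These arrays were chosen by Xist, so the values are a description with no test.

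**Figure D4:**
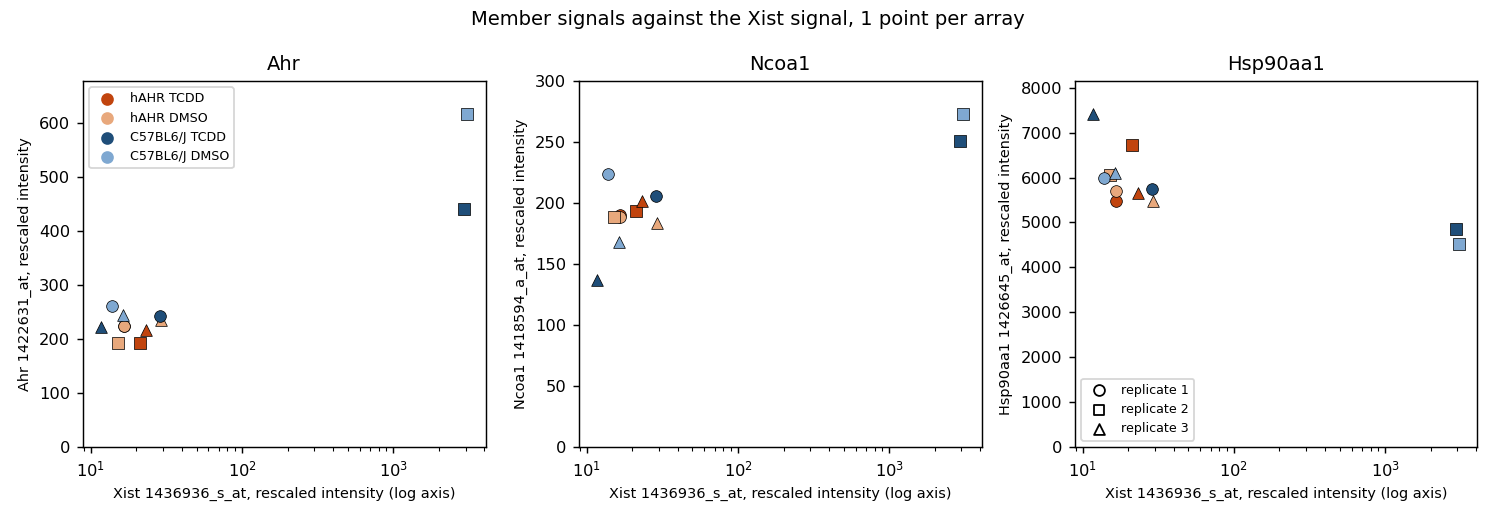
Rescaled intensity of Ahr 1422631_at, Ncoa1 1418594_a_at and Hsp90aa1 1426645_at (linear axes from 0) against that of Xist 1436936_s_at (log axis), 1 point per array, coloured by group and shaped by replicate number. The C57BL6/J replicate 2 arrays lie alone at the right, at 2950 and 3080 for Xist, above the rest for Ahr and Ncoa1 and below it for Hsp90aa1.

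Among the brightest probe sets of 7 member genes, Hsp90aa1 and Ncoa1 had the strongest correlation of 21 pairs, and this pair and the others described here were picked after their values were seen. The Pearson correlation of 1438902_a_at with 1418594_a_at over 12 arrays was -0.90 (Spearman -0.87), -0.76 without the 2 arrays farthest from the Hsp90aa1 median, -0.80 without the C57BL6/J replicate 2 arrays, -0.55 within the 6 hAHR arrays and -0.97 within the 6 C57BL6/J arrays. With arrays shifted to the same median it was -0.31, so its size depends on how the arrays are scaled. For Hsp90aa1 against Ncoa2 1435233_at it was -0.71 (Spearman -0.48), and -0.19 on the same-median scale. The strongest positive correlation was that of Arnt2 1434028_at, a dim probe set, with Ncoa2 1435233_at, at 0.81 (Spearman 0.82), 0.75 without the 2 arrays farthest from the Arnt2 median, 0.82 without the C57BL6/J replicate 2 arrays, 0.96 within the hAHR arrays and 0.95 within the C57BL6/J arrays. It was 0.85 on the same-median scale and 0.79 after quantile normalization. Each array contributes to both values of a pair, and these are descriptions. At or beyond 0.8 with Hsp90aa1 were 1.99% of 27022 brighter probe sets on the positive side and 2.95% on the negative side.

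The genes most like each member over the 12 arrays were taken by Pearson correlation of log2 signals among 12660 genes of the brighter 60% of probe sets (12661 for Ahrr). For Ahr they were Rcan2 (0.967), Tmem14a (0.954) and Galnt4 (0.953), which without the C57BL6/J replicate 2 arrays correlated at 0.81, 0.859 and 0.782. For Arnt they were Pitpnm2os1 (0.847), Lrriq3 (0.842) and Tmem161b (0.801), of which Pitpnm2os1 and Lrriq3 were dim, at most 30.6 and 35.3. For Hsp90aa1 they were Atf2 (0.951), Abi1 (0.94) and Sod1 (0.931), and Atf2 correlated at 0.924 without these arrays. For Ahrr they were Eya3 (0.833), Pigx (0.819) and Fancb (0.804), with Ahrr itself and Fancb (at most 19.5) below 29.3 in every array. Each set was picked as the highest of all these genes over only 12 arrays, so high correlations are partly a product of the selection.

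Of the other groups of the pathway, further coactivators and corepressors had 0 of 13 measured genes called in each of the 7 comparisons, with a median TCDD change of -0.05 in hAHR hepatocytes and 0.06 in C57BL6/J hepatocytes. Rb1, which binds the receptor, read 139, 113 and 150 in hAHR TCDD arrays, against 210, 196 and 220 in hAHR DMSO arrays, without overlap (log2 change -0.59, limma adjusted p = 1). It was picked by its small unadjusted p, and 4.18% of all probe sets were likewise below without overlap. The 12 other bHLH-PAS factors had 0 called, with a median TCDD change of 0.02 in hAHR hepatocytes and -0.04 in C57BL6/J hepatocytes. Their median between genotypes under DMSO was -0.10, against 0.025 for all probe sets. In that comparison 2 of 12 were above 0, against 55% of all probe sets, and the list was not tested as a set. Npas4, a neuronal factor of this family, read 5.22, 8.07 and 18.6 in C57BL6/J TCDD arrays, against 1.3, 1.2 and 1.7 in C57BL6/J DMSO arrays (log2 change 0.58, limma adjusted p = 0.968), all below 29.3. The 7 genes of receptor turnover and export had 0 called, with a median TCDD change of 0.001 in hAHR hepatocytes and -0.06 in C57BL6/J hepatocytes. Rbx1, a RING subunit of cullin ubiquitin ligases, read 28.4, 26.1 and 28.9 in hAHR TCDD arrays, against 30.6, 2.2 and 3.3 in hAHR DMSO arrays (log2 change 0.79, limma adjusted p = 1), with overlapping groups. All of these Rbx1 signals but the 30.6 were below 29.3.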

How the data were processed

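The authors deposited linear intensity values for 45101 probe sets in 12 arrays; per the labels' design text and the submitters' processing notes they were made with PLIER-MM in Affymetrix Expression Console 1.1. The deposited intensity had a 2% trimmed mean of 150 in 9 arrays and of 500 in the 3 C57BL6/J TCDD arrays, so every array was rescaled to 150. PLIER does not give such a shared mean, and no source used here names the scaling. Rescaling removes a constant factor only. Array medians were then 20.22 to 21.81 in C57BL6/J TCDD, 18 to 18.9 in C57BL6/J DMSO and 16.5 to 23.4 in hAHR arrays. Any separate processing of the C57BL6/J TCDD arrays is confounded with that group. Of 45037 probe sets left after removing 64 controls, 34945 named 1 symbol, 932 several and 9160 none. log2(intensity + 16) was fitted in limma 3.58.1 (R 4.3.3, lmFit and eBayes with an intensity trend) as 4 group means, with 12 arrays and 8 residual degrees of freedom, and two-sided tests, adjusted over all probe sets. The 4 groups share 1 spread for each probe set, so SEs and p-values of hAHR changes also carry the C57BL6/J spread. The eBayes step also draws each spread toward the intensity trend over all probe sets. SEs therefore do not follow from the SDs within groups alone. The number of arrays limits the precision.

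The members, gene lists and comparisons were chosen with earlier results of these data known. Besides the members, the text names up to 3 genes of each list with the smallest unadjusted p in a comparison, the marker genes, and the 3 genes most correlated with Ahr, Arnt, Hsp90aa1 and Ahrr. Same-numbered arrays of hAHR deviated together (correlations of deviations from group means 0.144 to 0.182, against -0.13 to -0.026 for other numbers). So in hAHR the numbers pair arrays by the values, although the design text gives 1 mouse per array. In C57BL6/J the correlation was 0.437 for replicates 2, both Xist-high, 0.189 for replicates 1 and 0.05 for replicates 3. Other numbers there gave -0.379 to 0.23, so only the replicate 2 value lay above all of these. The deviations are taken from group means that include the Xist-high arrays. These values therefore cannot decide whether replicates 1 and 3 are pairs. Whether same-numbered arrays share an animal was not tested. The main fit takes all arrays as independent, so genotype intervals averaged over treatments are too narrow if they do. Intervals of TCDD changes and of their difference would then tend to be too wide. With the replicate block, 3146 probe sets had a limma unadjusted p under 0.05 for TCDD in C57BL6/J hepatocytes, against 2060 without it. In hAHR hepatocytes these counts were 1974 and 1575. No arrays were identical, and correlations within groups were 0.957 to 0.982. Ratios of 3' to 5' control probe sets were 0.798 to 0.841 for Gapdh and 1.33 to 1.56 for Actb. Sequences are from RefSeq (GRCm38.p6). Alternatives changed the offset, scaling, filter on dim probe sets, trend, probe set choice, replicate block and arrays included.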

Additional observations from a re-analysis of the deposited data

How the results depend on the processing

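In each of the 7 comparisons 0 of 23 members passed the test, and 0 passed in all 151 counts made under 22 other settings, with and without each array in turn. The lowest adjusted p of any member in any setting was 0.52. With the replicate block within genotype 0 members passed, and the TCDD change of Ahr 1422631_at in C57BL6/J hepatocytes was -0.23 (limma adjusted p = 0.716). Of 3326 member changes under these settings, 3122 kept their sign and 204 did not, all of these with a size of 0.25 or less on the log2 scale in the reported fit. Counts over all probe sets moved more: 3 (0 to 8) for TCDD in hAHR hepatocytes, 2 (0 to 3) for TCDD in C57BL6/J hepatocytes, 0 (0 to 1) for their difference, 2 (1 to 6) between genotypes under TCDD, 3 (2 to 6) under DMSO, 10 (6 to 14) averaged and 6 (4 to 10) for TCDD averaged; the cause was not tested. Shifting arrays to the same median moved the median of all probe sets to -0.07 for TCDD in C57BL6/J hepatocytes, against 0.04, and to 0.08 for the difference of responses, against -0.05. The correlation of Hsp90aa1 with Ncoa1, tried under settings added after seeing the data, ranged from -0.94 to -0.31, and that with Ncoa2 from -0.82 to -0.19. Tiparp lost its call in 6 of the 22 settings for hAHR and in 15 for C57BL6/J hepatocytes. A fit on only the arrays compared was possible in 4 comparisons, and dim members had no value where the dimmest 40% of probe sets were left out.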
